A study of Mus musculus with 12 samples.

Results

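Cortical RNA of mouse embryos at E15.5 was set against the midpoint between E12.5 and E18.5, which is the mean of the E12.5 and E18.5 stage means of a probe on the log2 scale. The comparison used all 12 arrays of the series, 4 at each of 3 stages. Probes entered it if 1 or more arrays detected them (detection p-value below 0.01), as was the case for 19652 of the 45281 probes on the BeadChip (43.4%). A single gene symbol was available for 16803 of these, covering 10662 genes, and each gene is represented by its probe with the highest mean signal. The difference between E15.5 and the midpoint is called the departure. It is 0 for a probe whose log2 signal changed by equal steps in both intervals, positive for a rise that came early, a fall that came late or a peak at E15.5, and negative for the opposite courses.

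All samples are labeled as total RNA of embryonic cortex, with no strain, genotype or treatment given, and the study's methods describe wild-type mice of C57BL/6J background. The RNA was measured on BeadChips, arrays of beads whose attached probes report the abundance of a transcript as a fluorescence intensity. The series design counts 4 embryos per stage, but does not say whether an array holds 1 embryo. Xist, which is expressed from the inactive X chromosome of females, and Eif2s3y, a Y-linked gene, were both detected on 7 arrays, namely 1 of 4 at E12.5, 2 of 4 at E15.5 and 4 of 4 at E18.5. On E15.5 replicate 1 Eif2s3y was not detected. All p-values therefore rest on the variation among arrays, which may be technical, and precision is limited by having 4 arrays per stage. In whole tissue, fewer cells of a type and less RNA per cell cannot be told apart.

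The embryonic cortex is built from apical progenitors, also called radial glia, which divide at the ventricle and produce neurons either directly or through intermediate progenitors. Intermediate progenitors are marked by the transcription factor Eomes (Tbr2) and divide in the subventricular zone. Neurons of the deep layers are born before those of the upper layers, and glial production follows late in embryonic life. E15.5 lies within the period of neuron production, so a transcript that is used mainly by cells passing through that step can stand above both neighboring stages, while genes of early patterning or of late glial and synaptic programs need not.

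Arrays of a stage correlated with each other at 0.979 to 0.995 (Pearson, over tested probes). The first principal component, with 79.0% of the variance, ordered the stages, and the second, with 11.1%, separated E15.5 (scores of 31.8 to 35.8) from E18.5 (-21.7 to -14.9) and E12.5 (-27.2 to 1.94). E12.5 replicate 4 lay toward E15.5 on the first component, at -53.4 compared with -91.6 to -88.2 for the other E12.5 arrays, and on the second it had the score of 1.94. The departure uses the E12.5 mean, so several results are given with and without this array. Of 12 genes listed for cortical identity, 9 were tested, and all 9 were detected on at least 1 array of every stage, including Fezf2, Emx1 and Lhx2. The choroid plexus list, which marks the tissue that secretes cerebrospinal fluid, had summed signals of 3460 to 3650 on E15.5 replicates 1 to 3 and of 15100 on E15.5 replicate 4. Ttr, the defining transcript of this tissue, had log2 signals of 7.12, 7.0, 7.08 and 13.42 on the 4 E15.5 arrays.

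Of the tested probes, 1767 (8.99%) were above the midpoint and 1733 (8.82%) below it at an adjusted p under 0.01 (limma, Benjamini-Hochberg over all tested probes). A departure of at least 2-fold was found for 174 probes above (0.885%) and 222 below (1.13%). Counted as genes, 1085 were above (10.2%) and 854 below (8.01%), and the median departure over all genes was 0.03 on the log2 scale, with a middle 50% between -0.15 and 0.21. Of the 1085 genes above, 994 were detected on at least 1 array of every stage. Another 89 were set against the detection limit, because E12.5 or E18.5 was not detected on any array. For 264 of the 854 genes below the direction was not settled, since a level under the detection limit at E12.5 or E18.5 could be lower than its signal shows. The plot of departure against the change from E12.5 to E18.5 shows genes above and below the midpoint among rising, falling and level transcripts alike.

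**Figure D1:**
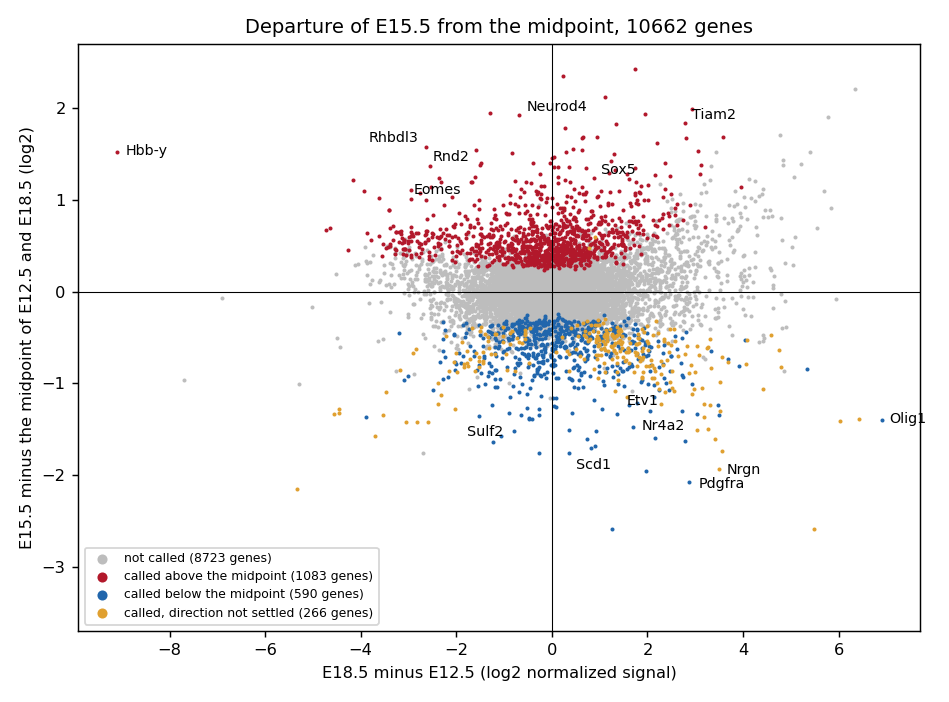
Departure of E15.5 from the midpoint (y axis, log2) against the change from E12.5 to E18.5 (x axis, log2 normalized signal) for 10662 genes, each a point, with the genes called at an adjusted p under 0.01 in color. Neurod4 stands at a departure of 1.93 with a net change of -0.69, and Scd1 at -1.76 with a net change of 0.36, while Olig1 lies below the midpoint (-1.40) and rises steeply.

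Removing E12.5 replicate 4 raised the gene counts to 1536 above (14.4%) and 1065 below (9.99%). Over probes the counts became 2471 and 2139, and 1742 of 1767 probes above and 1704 of 1733 below were called again, with 0 in the opposite direction. Leaving out E15.5 replicate 1, 3 or 4 instead lowered the number of probes above to 1113, 1093 and 1144. A departure also depends on the scale of the midpoint, because the mean of log2 values lies below the log2 of the mean when a gene changes steeply. With the midpoint taken on linear signals, 1022 of the 1085 genes above kept their sign, and all 854 genes below did. Probes without a single gene symbol were distributed differently, with 170 above and 357 below among 2849 (32.3% of the called ones above), compared with 53.7% above among called probes that have 1 symbol. The difference between these shares was not tested.

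The called genes were sorted by their course, using the comparisons of neighboring stages at the same threshold. From E12.5 to E15.5, 24.2% of all genes rose and 21.8% fell, and from E15.5 to E18.5, 19.8% rose and 23.4% fell. Among the 1085 genes above the midpoint, 371 rose and then had no call, 311 had no call and then fell, and 264 rose and then fell, which makes them peaks. Another 130 fell in both intervals and 9 rose in both. Among the 854 below, 342 had no call and then rose, 245 fell and then had no call, and 167 fell and then rose, which makes them troughs. In these groups 185, 175 and 134 genes in turn were detected on at least 1 array of every stage. The rest had a stage that no array detected, where a missing call can reflect the detection limit. Of the peaks 202, and of the troughs 123, were detected on all 12 arrays. Without E12.5 replicate 4 there were 314 peaks and 192 troughs, among them 252 of the 264 and 162 of the 167.

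Of all lists examined, intermediate progenitors had the largest share of members above the midpoint. Of 14 listed genes 11 were tested, and 9 were above the midpoint and 0 below, compared with 10.2% and 8.01% of all genes, with a median departure of 1.24. The count was 9 with each of the 12 arrays left out in turn, and 10 of 11 had a positive departure against the linear midpoint as well. The 2 members without a call were Dll1 (-0.07) and Hes6 (0.32).

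Neurod4, a proneural transcription factor, had log2 signals of 6.48, 6.77, 6.03 and 7.22 at E12.5, of 8.22, 8.17, 8.20 and 8.27 at E15.5, and of 6.11, 5.82, 5.88 and 5.95 at E18.5. Every E15.5 array was higher than every array of the other stages, and the departure was 1.93 ± 0.16 (SE, 3.81-fold, adjusted p = 4.89e-06). It was the largest departure above the midpoint among genes detected on all 12 arrays, with clone and predicted names left out. Insm1, a zinc-finger factor of basal progenitors, followed the same rise and fall, with means of 10.53, 11.91 and 10.91 at the 3 stages and a departure of 1.19 (adjusted p = 5.25e-05). Sstr2, a somatostatin receptor, did so with means of 10.71, 11.86 and 10.45 and a departure of 1.28 (adjusted p = 2.16e-05).

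Mfng, another called member of the group (departure 0.84), fell in both intervals. The members described next had no call between E12.5 and E15.5 and fell by E18.5, where they were still detected. Rhbdl3, a member of the rhomboid family, had log2 signals of 9.07, 8.98, 9.25 and 9.17 at E12.5, of 9.60, 9.17, 9.20 and 9.52 at E15.5, and of 6.54, 6.63, 6.34 and 6.40 at E18.5. The first 2 stages overlapped and E18.5 lay apart from both, which gave a departure of 1.58 ± 0.10 (adjusted p = 6.38e-07). Eomes had 9.51, 9.55, 9.82 and 10.25 at E12.5, 10.06, 10.57, 10.12 and 10.12 at E15.5, and 8.0, 8.56, 8.52 and 7.57 at E18.5. Its departure was 1.24 ± 0.19 (adjusted p = 0.000358), and the rise from E12.5 (0.44) was not called. A second, separate probe of Eomes had a departure of 0.41 (adjusted p = 0.0107). Neurog2, the proneural factor that starts neuron production in the cortex, had means of 11.48, 11.57 and 8.92 (departure 1.36), and Gadd45g, a stress-response gene expressed in these progenitors, had means of 12.25, 12.31 and 9.89 (departure 1.24).

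**Figure D2:**
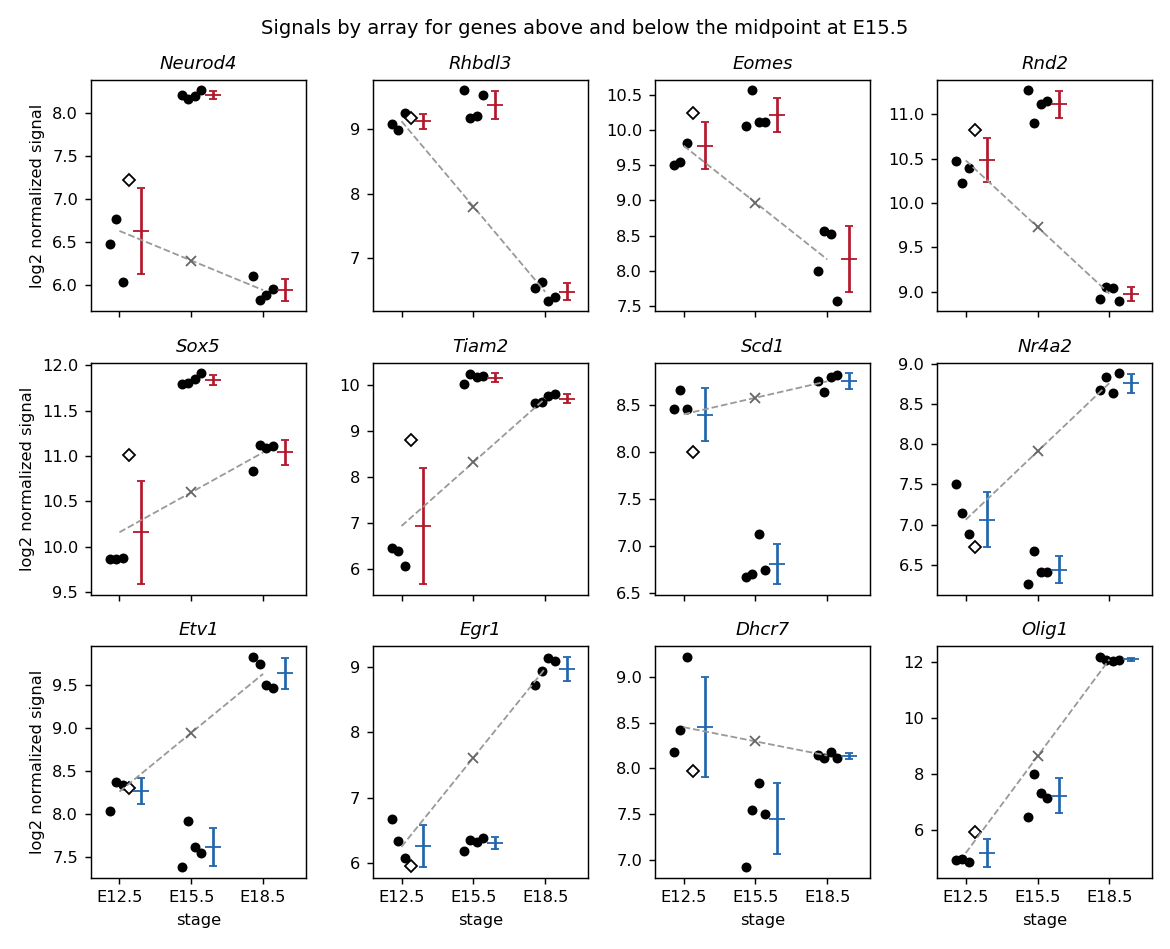
Log2 normalized signals (y axis) of 12 genes by stage (x axis), with 1 point per array, E12.5 replicate 4 as an open diamond, the stage mean ± SD beside the points in red for genes above and blue for genes below the midpoint, and the midpoint as a gray cross on the dashed line between the E12.5 and E18.5 means. The 4 E15.5 arrays of Neurod4 sit between 8.17 and 8.27, and those of Scd1 between 6.67 and 7.13, on the 2 sides of their midpoints.

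Most apical progenitor genes declined. Of 13 tested, 9 fell and 2 rose in the earlier interval, and 9 fell in the later one. Against the midpoint 7 were above and 0 below, with a median of 0.38, and 9 departures were positive on the log2 scale compared with 5 on the linear one. Vim, an intermediate filament of radial glia, kept its level from E12.5 (mean 12.18) to E15.5 (12.10) and fell to 10.36 at E18.5, for a departure of 0.83 (adjusted p = 6.95e-06). Nes (0.53), Notch1 (0.43) and the Notch target Hes1 (0.56) fell in both intervals, and more in the later one. Sox2 (-0.19, adjusted p = 0.227) and Pax6 (-0.18, adjusted p = 0.607), transcription factors that define these cells, had no call, and Pax6 was not detected at E18.5. The count of 7 was between 2 and 7 with 1 array left out, and was lowest without E15.5 replicate 1. Of 15 tested genes of the Notch pathway, 4 were above and 0 below (1 without E15.5 replicate 1 and 2 without E15.5 replicate 4). They were Mfng, a modifier of Notch receptors (0.84), Hes1, Notch1 and Nrarp (0.35).

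Genes of the cell cycle declined over the whole period, and less before E15.5 than after it. In the mitosis list, 9 of 16 tested genes were above the midpoint and 0 below (5 without E15.5 replicate 1 or 4), with a median of 0.47. Cdk1, the kinase that drives entry into mitosis, had log2 signals of 11.86, 11.72, 11.87 and 11.41 at E12.5, of 10.93, 10.63, 10.68 and 10.79 at E15.5, and of 8.50, 8.49, 8.61 and 8.45 at E18.5. The stages did not overlap, and the signal fell by 0.96 in the earlier interval and fell by 2.25 in the later one, for a departure of 0.64 (adjusted p = 0.00028). The median member of this list had covered 34.9% of its fall by E15.5 (13 genes that fell at least 2-fold and were detected on all arrays), compared with 45.1% for all 1028 such falling genes. Without E12.5 replicate 4 the share over all falling genes was 47.6% (1107 genes). Shares of single lists were not computed without that array. DNA replication genes had covered 41.3% (19 genes). In that list, 4 of 21 were above and 0 below (1 without E15.5 replicate 1, 3 or 4), led by Rrm2 (0.63), a subunit of ribonucleotide reductase, and Mcm3 (0.52), a part of the replicative helicase. The other probes of Rrm2 had departures of 0.19 and 0.12 that were not called (adjusted p = 0.194 and 0.477).

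This excess holds for log2 signals only. Against the linear midpoint, 1 of 16 mitosis genes and 2 of 21 DNA replication genes had a positive departure, compared with 15 and 18 on the log2 scale, and Cdk1 (-0.11), Cdc20 (-0.12), Mcm3 (-0.38) and Hes1 (-0.15) changed sign. The plot of both scales shows the 2 cell cycle lists moving across 0, while the intermediate progenitor and cholesterol synthesis genes stayed on their sides apart from members close to 0. Replicative histones, which package newly made DNA, had 6 of 10 tested genes above and 0 below, and 6 of 10 were positive on the linear scale as well. H3c7 (1.10) and H3c6 (1.02) led them on the log2 scale, but their departures against the linear midpoint were only 0.05 and 0.10. Histone genes are near-identical copies whose probes may not be separable, and a second, dimmer probe of H3c7, undetected at E15.5 and E18.5, had a departure of -1.03.

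**Figure D3:**
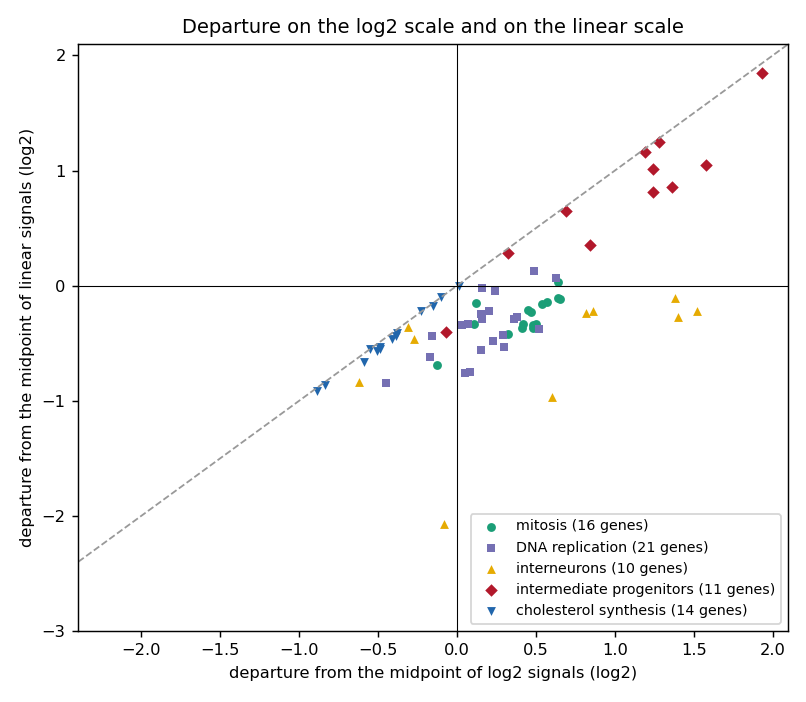
Departure from the midpoint of linear signals (y axis, log2) against the departure from the midpoint of log2 signals (x axis, log2) for the tested genes of 5 lists, each point a gene and the dashed line equality. Of 16 mitosis genes 15 are positive on the x axis and 1 on the y axis, while of 11 intermediate progenitor genes 10 are positive on both.

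Of 16 tested genes of newborn and migrating neurons, 11 rose and 1 fell in the earlier interval, and 1 rose and 4 fell in the later one. Against the midpoint 4 were above the midpoint and 0 below, with a median departure of 0.53. Rnd2, a small GTPase that acts downstream of Neurog2 in migrating neurons, had log2 signals of 10.47, 10.23, 10.40 and 10.82 at E12.5, of 11.27, 10.90, 11.12 and 11.15 at E15.5, and of 8.92, 9.05, 9.04 and 8.90 at E18.5. All E15.5 arrays were higher than all others, for a departure of 1.38 ± 0.10 (2.61-fold, adjusted p = 2.24e-06). Neurod2 (0.95), a transcription factor of excitatory neurons, rose from a mean of 10.61 to 12.47 and stayed at 12.41. Slc17a6 (0.59), a vesicular glutamate transporter, and Nfib (0.45) were the other members called. Dcx, a microtubule-associated protein of migrating neurons, had a departure of 0.60 that was not called (adjusted p = 0.0508). In E12.5 replicate 4 its signal was 10.94, while the remaining E12.5 arrays had 9.45 to 9.80. Without that array 10 of the 16 genes were above, and Dcx was among them (0.77, adjusted p = 4.18e-05).

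Interneurons enter the cortex from the ganglionic eminences, and their genes were higher at each later stage in summed signal, with medians of 262, 3470 and 10200 from the earliest to the latest. Of 10 tested interneuron genes, 0 were above the midpoint and 1 below, although the median departure was 0.71. Sst, the neuropeptide somatostatin, had log2 signals of 4.56, 4.52, 4.54 and 8.22 at E12.5, of 9.41, 10.02, 9.90 and 9.39 at E15.5, and of 10.94, 10.87, 10.75 and 10.86 at E18.5. Replicate 4 alone detected it at E12.5. The departure was 1.52 with all arrays (adjusted p = 0.0499). Without replicate 4 the E12.5 level of Sst was not above the detection limit on any array, so that its departure has no exact value there. The number of interneuron genes above was 6 without that array, but the 7 members detected at E12.5 were each detected on 1 array of that stage, so these calls too can be set against levels under the detection limit. On the linear scale 0 of the 10 were positive. The part that replicate 4 plays in the other E12.5 values was not tested.

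**Figure D4:**
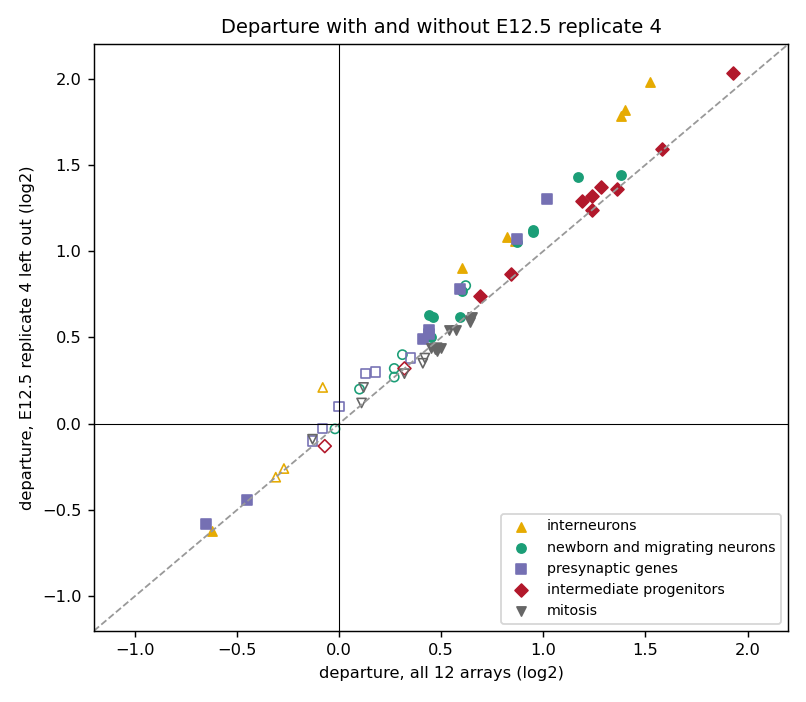
Departure without E12.5 replicate 4 (y axis, log2) against the departure with all 12 arrays (x axis, log2) for the tested genes of 5 lists, each point a gene, filled where the adjusted p without that array was under 0.01, and the dashed line equality. Of 10 interneuron genes 0 are above with all arrays and 6 without replicate 4, where Sst and other genes undetected on the remaining E12.5 arrays have no exact y value.

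Among the transcription factors of layer neurons, those of the deep layers departed in both directions. Of 13 tested, 5 were above and 2 below. Sox5, which controls the order of deep-layer neuron production, had log2 signals of 9.87, 9.87, 9.88 and 11.01 at E12.5, of 11.79, 11.80, 11.85 and 11.91 at E15.5, and of 10.84, 11.12, 11.09 and 11.11 at E18.5. It was a peak, although E12.5 replicate 4 lay within the range of E18.5, and the departure was 1.24 (adjusted p = 0.000242), and 1.38 without that array. Of the other probes of Sox5, 3 had departures of 1.01 to 1.26, and the dimmest had 0.71 and -0.12 and were not called. Fezf2 (0.60), Zfpm2 (0.67), Nfia (0.52) and Bcl11b (0.61), the last of which encodes the corticofugal factor Ctip2 and is also a BAF subunit, were above as well. The call of Bcl11b was lost with any of 10 of the 12 arrays left out. Etv1, a factor of layer 5 neurons, had log2 signals of 8.04, 8.37, 8.34 and 8.30 at E12.5, of 7.38, 7.92, 7.61 and 7.55 at E15.5, and of 9.83, 9.75, 9.50 and 9.46 at E18.5. It was a trough, with all E15.5 arrays lowest and a departure of -1.34 (adjusted p = 4.44e-06). Foxp1 (-0.81) had no call in the earlier interval and rose in the later one.

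Upper-layer neurons are born around and after this stage. Of 10 of their genes tested, 0 were above and 1 was below with a direction that was not settled, and the median was -0.01. Lmo4, a transcriptional adaptor and the brightest of them, rose by 0.91 in each interval with its brightest probe, with a departure of 0.00 (adjusted p = 0.996), while a dimmer probe of Lmo4, detected on 1, 2 and 4 arrays of the 3 stages, was below (-1.03, adjusted p = 0.000794). Of the 7 subplate genes tested, 1 was above and 2 were below. Nr4a2, an orphan nuclear receptor of subplate neurons, had log2 signals of 7.50, 7.15, 6.88 and 6.72 at E12.5, of 6.26, 6.67, 6.41 and 6.41 at E15.5, and of 8.67, 8.84, 8.64 and 8.88 at E18.5. It was lowest on all E15.5 arrays, for a departure of -1.47 ± 0.13 (adjusted p = 6.14e-06), while Lpar1, a lysophosphatidic acid receptor, was above (0.70). Of 10 genes of Cajal-Retzius cells, early neurons at the cortical surface, 3 were above (1 without E15.5 replicate 1 or 3) and 1 was below with no settled direction, led by Reln (0.73), the secreted guide of neuron positioning, and Lrp8, a Reelin receptor, was above too (0.48). The calls of Reln and Lrp8 were each lost with any of E15.5 replicates 1 to 3 left out.

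The largest departure below the midpoint among genes detected on all 12 arrays, with clone and predicted names left out, was in lipid synthesis. Scd1, a desaturase that makes monounsaturated fatty acids, had log2 signals of 8.46, 8.66, 8.46 and 8.0 at E12.5, of 6.67, 6.70, 7.13 and 6.74 at E15.5, and of 8.75, 8.64, 8.80 and 8.82 at E18.5. It was lowest on all E15.5 arrays, for a departure of -1.76 ± 0.12 (3.39-fold, adjusted p = 9.28e-07). It was followed by Dtx4 (-1.70), a ubiquitin ligase of the Deltex family, Sertm1 (-1.60), a small transmembrane protein, Sulf2 (-1.52), an extracellular enzyme that removes sulfate from heparan sulfate, and Zfp365 (-1.52). Mast4, Nr4a2, Rhbdl2, Srr, the enzyme that makes D-serine, and Ildr2 completed the 10 largest, at -1.51 to -1.36. All 10 were troughs, falling and then rising past the threshold. Further, dimmer probes of Srr (-0.13), Sulf2 (-0.37) and Zfp365 (0.13) were not called.

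Beside Neurod4 and Rhbdl3, the 10 largest departures above the midpoint under the same rule included the following genes. Tiam2, an activator of the GTPase Rac, had log2 signals of 6.46, 6.39, 6.06 and 8.81 at E12.5, of 10.03, 10.25, 10.17 and 10.20 at E15.5, and of 9.62, 9.63, 9.77 and 9.82 at E18.5. It was highest on all E15.5 arrays, and its departure was 1.84 with E12.5 replicate 4 and 2.15 without it (adjusted p = 0.00246 and 1.26e-08). Cdh13, a cadherin without a transmembrane segment, rose from a mean of 6.67 to 9.73 and stayed at 9.72 (1.53, adjusted p = 0.00283). The departure of Cdh13 was 1.79 without E12.5 replicate 4, and its call was lost without E15.5 replicate 3. A dimmer probe of Cdh13 had 1.27 (adjusted p = 0.0109). Mfap4, a protein of elastic fibers, had means of 9.56, 10.31 and 7.98 (1.54), and Loxl1, which cross-links elastin, had 8.84, 10.30 and 8.85 (1.45). Ecrg4 (1.68), Dusp14, Rec8 and Mia (1.40 each) completed the 10. Tac2, a tachykinin precursor, was not detected at E12.5 and was 2.11-fold above the midpoint with the detection limit there. Crabp1, a retinoic acid binding protein that was not detected at E18.5, was 1.96-fold above with the detection limit at that stage. Neither value is a strict lower bound, because E18.5 for Tac2 and E12.5 for Crabp1, each detected on 1 array, kept their signals.

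Promoters of these genes were searched for the E-box that proneural factors such as Neurog2 and the Neurod family prefer (CAGATG, either strand), in the window of 250 bases before to 50 after each RefSeq start. The letters were present in 13.5% of the 8629 tested genes with a promoter in the table, in 14 of 73 genes at least 2-fold above the midpoint (19.2%) and in 14 of 47 at least 2-fold below it (29.8%), leaving out genes of unsettled direction. None of the 8 intermediate progenitor genes with a promoter in the table held them. Of the 10 leading genes each way, 6 above and 8 below had a promoter, and 1 of each held a match. Both are shown as the nearest view of such letters beside a leading departure (GRCm38.p6, 5′ to 3′ on the strand of the gene, the match in capitals), Tiam2 at chr17:3482065-3482364 on the plus strand and Sertm1 at chr3:54915838-54916137 on the minus strand. A match is a description and not a binding site.
Tiam2: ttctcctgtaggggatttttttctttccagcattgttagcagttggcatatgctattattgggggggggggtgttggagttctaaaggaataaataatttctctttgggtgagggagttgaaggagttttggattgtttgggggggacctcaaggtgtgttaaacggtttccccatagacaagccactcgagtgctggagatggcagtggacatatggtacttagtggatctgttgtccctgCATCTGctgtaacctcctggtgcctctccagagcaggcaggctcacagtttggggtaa
Sertm1: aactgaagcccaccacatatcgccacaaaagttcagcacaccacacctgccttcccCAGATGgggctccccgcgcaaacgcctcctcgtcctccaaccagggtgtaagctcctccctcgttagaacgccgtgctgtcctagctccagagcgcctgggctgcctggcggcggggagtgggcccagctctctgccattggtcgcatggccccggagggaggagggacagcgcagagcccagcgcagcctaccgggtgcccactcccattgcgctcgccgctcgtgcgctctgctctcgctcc
The match lies 8 bases before the start in Tiam2, which stood above the midpoint, and 194 bases before it in Sertm1, which stood below. The start shown for Tiam2 lies inside the gene and not at its outer end. Whether the Tiam2 probe reports transcripts from that start was not tested.

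Cholesterol synthesis was the metabolic group with the most members below the midpoint. Of 20 listed enzymes and regulators 14 were tested, and 0 were above and 8 below, with a median of -0.45. The 8 were Dhcr7 (-0.84), Hsd17b7 (-0.59), Msmo1 (-0.55), Nsdhl (-0.51), Sqle (-0.49), Mvd (-0.49), Fdps (-0.41) and Cyp51 (-0.39). Of these, 6 had no call between E12.5 and E15.5 and then rose, Msmo1 fell and then rose, and Dhcr7 fell and then had no call. Hsd17b7 had log2 signals of 9.15, 9.12, 9.03 and 9.17 at E12.5, of 8.97, 9.05, 8.99 and 8.89 at E15.5, and of 10.02, 10.06, 9.93 and 10.03 at E18.5. E12.5 and E15.5 overlapped and E18.5 lay above both, with a departure of -0.59 ± 0.06 (adjusted p = 2.67e-05). Dhcr7, the last reductase of the pathway, had 8.18, 8.42, 9.22 and 7.97 at E12.5, 6.92, 7.55, 7.84 and 7.50 at E15.5, and 8.15, 8.11, 8.18 and 8.11 at E18.5. Its E15.5 arrays were lower than all others, but the call (adjusted p = 0.00692) was lost with any of 8 arrays left out. The count of 8 was between 5 and 9 with 1 array left out, and was lowest without E15.5 replicate 4. Srebf2 (-0.10) and Insig1 (-0.23), regulators of the pathway, had no call, and 13 of 14 departures were negative on each scale.

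Other metabolic and housekeeping lists had few calls. Of 20 oxidative phosphorylation genes and 13 cytosolic ribosomal protein genes, 0 were called, with medians of 0.10 and 0.05. In glycolysis 1 of 17 was above (Aldoc, 0.73, a peak) and 1 below (Pdk1, -0.54), with 2 and 3 without E12.5 replicate 4, and among chaperones 2 of 18 were below, Hsp90aa1 (-0.52) and Hspd1 (-0.40), with 4 below without E12.5 replicate 4. Pdk1 and both chaperones lost their calls with 1 or more arrays left out, and E15.5 replicate 1 was among these for each. Glycolytic genes that fell at least 2-fold had covered a median of 63.4% of the fall by E15.5 (9 genes), compared with 45.1% for all such genes.

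Of 12 tested genes of the oligodendrocyte lineage, which forms the myelinating glia, 3 were below the midpoint with a settled direction and 0 above. Another 5, Sox10, Gpr17, Nkx2-2, Lhfpl3 and Olig2, were called below, but no array of E12.5 or E15.5 detected them and their direction was not settled. The median of -0.56 includes these 5. Pdgfra, the receptor of oligodendrocyte precursors, had log2 signals of 5.91, 5.99, 6.33 and 5.25 at E12.5, of 5.03, 5.33, 5.12 and 5.42 at E15.5, where it was not detected on any array, and of 8.80, 8.57, 8.69 and 8.92 at E18.5. It was 2.89-fold below the midpoint with the detection limit in place of its E15.5 level (adjusted p = 2.37e-06). Olig1 had 4.94, 4.98, 4.86 and 5.92 at E12.5, 6.45, 7.99, 7.32 and 7.16 at E15.5, and 12.18, 12.06, 12.03 and 12.06 at E18.5. Its departure was -1.40 (adjusted p = 0.000817), with E12.5 replicate 4 the only array of that stage that detected it. Mbp, a myelin protein, was lower at E15.5 than at both other stages (-0.71, adjusted p = 2.73e-05). In the astrocyte list 3 of 16 were above, among them Hopx (0.45) and Slc1a3 (0.38), and 3 below, of which Ntrk2 (-0.73) had a settled direction.

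Of 14 tested presynaptic genes 13 rose in the earlier interval and 10 in the later one, and of 12 postsynaptic genes 10 and 9 did. Of the presynaptic genes 0 were above and 2 below, 1 of the latter with no settled direction, and 6 were above without E12.5 replicate 4. Of the postsynaptic genes 0 were above and 3 below, 2 of the latter with no settled direction, and 4 were above without that array. Over all genes 10.2% were above and 8.01% below, and 14.4% were above without that array. Camk2a, a kinase of the postsynaptic density, was not detected at E15.5 and was at least 1.71-fold below the midpoint. Presynaptic genes that rose at least 2-fold had covered a median of 67.8% of the rise by E15.5 (12 genes), compared with 56.3% for all 1037 such rising genes. The share over all rising genes was 60% without E12.5 replicate 4 (1108 genes). Axon guidance genes departed both ways, with 5 of 23 above and 3 below (9 and 3 without replicate 4, and 2 and 3 without E15.5 replicate 1 or 3). Plxna2 (0.80), Epha3 and Sema6d (0.74 each), which encode receptors and a guidance cue, were above, and the ligand Efna5 (-1.19), the netrin receptor Unc5c (-0.94) and Epha7 (-0.65) were below. Efna5 had means of 9.06, 8.31 and 9.93 at the 3 stages.

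Immediate-early genes, which respond within minutes to stimulation, did not move together. Of 8 tested, 3 were above and 2 below, 1 of the latter with no settled direction. Egr1 had log2 signals of 6.67, 6.33, 6.07 and 5.95 at E12.5, of 6.18, 6.35, 6.32 and 6.38 at E15.5, and of 8.72, 8.94, 9.13 and 9.08 at E18.5. The first 2 stages overlapped, and the departure was -1.30 (adjusted p = 1.07e-05). Arc, a regulator of synaptic strength, had its highest values at E15.5 (6.45 to 6.82) and was not detected at E18.5. It was 1.95-fold above the midpoint with the detection limit at E18.5. That is not a strict lower bound, because E12.5, detected on 1 array, kept its signals. Dusp1 (0.65) and Jun (0.57) were above too. In the list of ion channels and chloride transporters, 1 of 11 was above, Kcnq3, and 2 were below, 1 of the latter with no settled direction. Kcnq3 was 1.27-fold above with the detection limit at E12.5, where no array detected it, while E18.5, detected on 1 array, kept its signals. Kcnd2 (-1.15), a potassium channel subunit below the midpoint, had no call before E15.5 and rose after it.

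Signals of blood and of tissue next to the cortex also departed. Of 8 definitive erythroid genes 4 were above and 0 below, with each array left out in turn as well. The adult globin gene Hbb-bs had log2 signals of 12.43, 12.03, 12.54 and 13.80 at E12.5, of 14.71, 14.86, 14.79 and 14.75 at E15.5, and of 14.37, 14.52, 14.37 and 14.58 at E18.5. It was highest on all E15.5 arrays (1.20, adjusted p = 0.00183), and Alas2, the first enzyme of erythroid heme synthesis, was also above (0.91), but Hbb-bs and Hbb-bt are near-identical copies. The embryonic globin Hbb-y fell from a mean of 13.73 to 10.70 and was not detected at E18.5, at least 2.05-fold above the log2 midpoint and below the linear one (-1.85). Of 11 genes of the cortical hem and dorsal midline, the signaling center at the medial edge of the cortex, 3 were above and 5 below, 2 of the latter with no settled direction, and 3 were below without E15.5 replicate 2 or 3. Rspo2, a Wnt agonist, had log2 signals of 9.43, 9.44, 9.80 and 8.74 at E12.5, of 7.69, 7.11, 7.44 and 7.71 at E15.5, and of 8.34, 7.94, 8.14 and 7.97 at E18.5, so that all E15.5 arrays were lowest (-1.24, adjusted p = 0.00016). Bmp7 (-0.79) was below, and the Wnt ligands Wnt3a (at least 1.21-fold on the log2 scale, and -0.76 against the linear midpoint) and Wnt5a (0.55) and the agonist Rspo3 (0.53) were above. Summed over this list, the signal of an E12.5 array was 5570 to 7430, that of an E15.5 array 3340 to 4050 and that of an E18.5 array 3350 to 3510.

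Choroid plexus genes had 1 call among 9 tested, Sostdc1 (-1.04), and 0 positive departures. The call of Sostdc1 was lost with any of 6 arrays left out, and the count below was between 0 and 3, the highest without E15.5 replicate 4. Of 3 primitive globins 1 was above and 1 was below with no settled direction. Among endothelial genes 2 of 16 were above and 2 below, among pericyte genes 1 of 10 above, among microglial genes 2 of 13 above (4 without E12.5 replicate 4), among meningeal genes 1 of 5 above and 1 below, and among genes of the ganglionic eminence and striatum 1 of 8 each way. One of the 2 endothelial genes below had no settled direction. In the list of thalamus and other brain regions 1 of 3 was above. Counts of this size are close to the 10.2% above and 8.01% below over all genes. With 1 array left out, the count above lay between 0 and 3 for endothelial genes and between 0 and 4 for microglial genes, and was 0 for microglia without E15.5 replicate 2 or 3. The summed signals of the definitive erythroid list were 16800 to 39900 on E12.5 arrays, with the highest on replicate 4. They were 70000 to 74600 on E15.5 arrays and 55000 to 65200 on those of E18.5. Microglial sums were 1020 to 1200, 1530 to 1730 and 1760 to 1930 at the 3 stages. The part of blood or of neighboring tissue in any neural result was not tested.

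**Figure D5:**
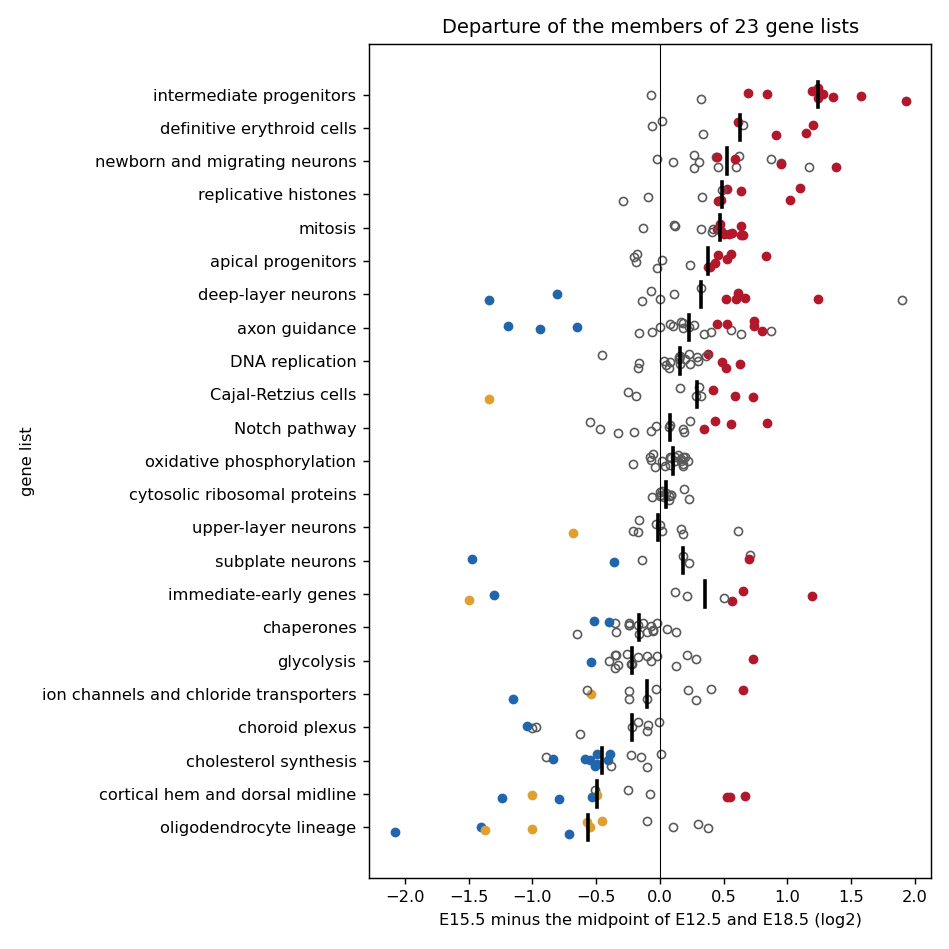
Departure (x axis, log2) of the tested members of 23 gene lists (y axis), each point a gene, filled in red above and in blue below the midpoint at an adjusted p under 0.01, in orange where such a direction was not settled, open where not called, with the median as a black bar. The intermediate progenitor median stands at 1.24. The oligodendrocyte lineage median of -0.56 includes 5 called genes whose direction was not settled.

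Chromatin remodelers are the subject of the study, and over all genes 18.2% departed in either direction. Of 12 tested subunits of the NuRD complex, which combines nucleosome remodeling with histone deacetylation, 1 was above and 0 below. Chd4, a core ATPase, fell through both intervals, with log2 signals of 10.49, 10.46, 10.59 and 10.25 at E12.5, of 10.17, 9.78, 10.13 and 10.08 at E15.5, and of 9.38, 9.03, 9.05 and 9.29 at E18.5. Its departure was 0.23 ± 0.10 (adjusted p = 0.11). Chd3 rose to means of 10.06 and 10.24 from 9.50, with a departure of 0.19 (adjusted p = 0.146). Chd5 had log2 signals of 5.23, 5.37, 5.20 and 6.12 at E12.5, detected on replicate 4 only, of 6.58, 7.28, 7.20 and 7.32 at E15.5, and of 9.67, 9.73, 9.74 and 10.16 at E18.5. All its stages were apart, and the departure was -0.55 ± 0.18 (adjusted p = 0.0347). The other 3 probes of Chd5 passed the threshold below the midpoint (-0.50, -0.63 and -0.80), with no settled direction. Mta2 was above (0.29, adjusted p = 0.00705), a call lost with any of 8 arrays left out, while Hdac2 (0.03), Mbd3 (0.02), Mta1 (-0.18), Mta3 (0.30, adjusted p = 0.036) and Rbbp7 (-0.22, adjusted p = 0.0424) had none. With the mean of its probes Hdac2 had -0.30, but its dimmer probe (-0.63) was not detected at E12.5 or E15.5 and had no settled direction. Of 19 BAF subunits, which belong to another remodeling complex, 3 were above (6 without E12.5 replicate 4, and 1 without any of the 4 E15.5 arrays) and 1 below. The 3 were Bcl11b, Smarcd3 (0.48) and Smarcb1 (0.33), and Arid1a (-0.40) was below. Tbr1 (0.32, adjusted p = 0.0254) and Cux1 (-0.17, adjusted p = 0.366), further layer factors, had no call with their brightest probes. A pair of dimmer Cux1 probes were called below (-0.52, adjusted p = 0.00651, and -0.65, adjusted p = 0.00521). Rhoa and Hdac1 were not analysed here.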

How the data were processed

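Total RNA of embryonic cortex from 3 stages, with 4 arrays each, was hybridized to mouse WG-6 v2.0 BeadChips. The authors deposited probe intensities that are linear and not normalized, and a detection p-value for each. The log2 table they deposited equals quantile-normalized log2 intensities (largest difference 5e-09) and served as an alternative. The submitters' processing notes name lumi, with the version not given in the sources used here. Background was estimated from the detection p-values and corrected (offset 16), and intensities were quantile-normalized and log2-transformed with limma 3.58.1 in R 4.3.3. One linear model with a mean per stage was fitted to the 12 arrays (lmFit and eBayes), and p-values were adjusted by Benjamini-Hochberg over 19652 probes. The script was tested on simulated data. The platform annotation gave 1 symbol for 34885 probes, several for 18 and none for 10378, and 34807 probes matched RefSeq by gene ID.

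A gene is at least N-fold from the midpoint where a stage was undetected on all 4 arrays, with the detection limit in place of its level. A stage with any detected array kept the signals of all its arrays. The value is therefore not a strict bound where some of these were undetected. Promoter sequences are from RefSeq (GRCm38.p6). Named genes are the 10 largest departures each way among genes detected on all 12 arrays with at least 2-fold, the 4 largest bounds each way, up to 2 called members of each of 38 lists (or the brightest one), and 20 genes named by the study. Clone, RIKEN, Gm, LOC and predicted names were left out of the 10 largest departures and the 4 largest bounds. Other list members were named after their values were seen. The contrast, members and lists were chosen with earlier results of these data known. Alternatives covered background correction, normalization, detection filter, variance model, threshold, scale of the midpoint, choice of probe and each array left out.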

Additional observations from a re-analysis of the deposited data

Results flagged for a closer look

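For 98 named genes, each stage's lowest or highest array was set against the other 3 arrays of that stage with Dixon's ratio. Of 294 groups 25 exceeded the 95% critical value for 4 samples, and chance flags about 1 in 20 groups. A gap of at least 1 on the log2 scale was present in 5 of the 25.

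E12.5 replicate 4 held 8 of them. Its log2 signal was above the other E12.5 arrays for Tiam2 (8.81), Cdh13 (8.23), Sox5 (11.01), Sst (8.22) and Olig1 (5.92). It was apart from them as well for the embryonic globin Hbb-y (13.40), the ligand Efna5 (8.74) and the Y-linked Eif2s3y (9.35). For each of these genes except Eif2s3y the value lay toward that of E15.5, as the first principal component of this array did. What set this array apart was not tested.

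At E15.5, replicate 1 stood apart for Sertm1 (7.59), the ribosomal protein gene Rps2 (14.79), Chd5 (6.58) and Eif2s3y (4.47, not detected). Replicate 2 did so for Vim (11.90), Hsp90aa1 (11.19) and Eomes (10.57), and replicate 3 for Scd1 (7.13). In Sertm1, Scd1 and Eomes the E15.5 arrays still lay on 1 side of the midpoint.

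The remaining values were C1qc on E12.5 replicate 1 (5.77), Atp5b (13.98), Mta2 (10.25) and Kcnd2 (7.93) on E12.5 replicate 3, Sox5 on E18.5 replicate 1 (10.84), Bmp7 on E18.5 replicate 3 (5.33), and Crabp1 (4.75), Hsp90aa1 (10.80) and Chd5 (10.16) on E18.5 replicate 4.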

How the results depend on the processing

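The number of probes above the midpoint (1767) was 2782 with array weights, 3161 at an adjusted p under 0.05 and 695 with a departure of at least 1.5-fold, and it ranged from 1093 (without E15.5 replicate 3) to 2471 (without E12.5 replicate 4) with each array left out. The number below (1733) was 970 for probes detected on all 12 arrays, 2849 at an adjusted p under 0.05 and 945 with at least 1.5-fold, and ranged from 1242 to 2139. At least 2-fold above (174) became 64 without background correction and with the processed values the authors deposited, 86 for probes detected on all 12 arrays, 93 against the linear midpoint and 293 with replicate 4 of E12.5 and of E15.5 both left out, and ranged from 149 to 294, the highest without E12.5 replicate 4. At least 2-fold below (222) became 57, 57, 80 and 435 under the first 4 of these settings, and ranged from 206 to 260. The share of calls that were above (50.5%) was 62.4% for probes detected on all 12 arrays. Among called named genes, signs changed against the linear midpoint for Hbb-y (-1.85), Hes1 (-0.15), Mcm3 (-0.38), Cdc20 (-0.12) and Cdk1 (-0.11), because the linear midpoint of a steeply changing gene is higher. Hdac2, which was not called with its brightest probe (0.03), had -0.30 with the mean of its probes, of which the dimmer was not detected at E12.5 or E15.5. Over the named genes and all settings, 2257 values were counted as unchanged, 164 lost the call, 21 gained it and 6 changed sign. Unchanged meant the same side of the threshold and, for called values, the same direction. Against the linear midpoint, where no p-value was computed, it meant a shift smaller than the largest stage SD of the gene. A further 23 values shifted by at least that SD against the linear midpoint. With each array left out, 60 of 80 called named genes kept the call and 20 lost it at least once. With a replicate block, 1356 probes were above and 1412 below, 169 and 218 of them at least 2-fold. Same-numbered arrays shared only a number (correlations of their deviations from -0.331 to 0.272). Where no other cause is given, the cause was not tested. Signal over background limits the genes undetected at a stage, whose direction or size is only bounded or not settled.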
